A study of Mus musculus with 4 samples.

Results

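Liver gene expression after cecal infusion of butyrate was set against that after infusion of acetate, as 1 ratio per gene between 1 array of each. The comparison covered 9410 of the 18820 genes measured: those whose mean log2 expression over the 4 arrays of the series was at or above 5.55, the median of all gene means, called the level floor below. Just inside the floor lay Nmnat3 and Tha1, with means of 5.55 and ratios of 0.23 and 0.34. Just outside it lay Acap1 and Slc30a3, also with means of 5.55 to 2 decimals, and with ratios of 0.01 and -0.12. A ratio is always the log2 of butyrate over acetate, so a negative value is a lower level with butyrate.

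The study gave short-chain fatty acids to conscious mice through an implanted cecal catheter, the cecum being the first pouch of the large intestine, and profiled the liver. All animals were male C57Bl/6J mice, 16 to 17 weeks old, on a semi-synthetic diet with palm oil for 6 weeks, with at least 5 days of recovery from surgery and a morning fast before the infusion. The acetate group received 0.3 M sodium acetate labelled with carbon-13 at 1 position and the butyrate group 0.3 M sodium butyrate labelled at 2 positions. Both ran at 0.2 ml/h for 6 h, a rate of 2.4 mmol/h/kg, so that molar dose and sodium load were equal. A control group received phosphate-buffered saline and a further group sodium propionate at the same dose; their levels are given beside the ratios and did not enter them. Equal RNA of 6 mice formed the acetate pool and that of 4 mice the butyrate pool, against 6 mice each in the control and propionate pools, 22 mice in all.

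Pooling left 1 array per infusion. No spread between animals or arrays could be measured, no test was possible, and no interval for a difference can be given. This was the only pair of compounds compared gene by gene, and every difference describes these 2 pools and not the acids in general. Other pairs of arrays are given below by totals only. A value counted as different when it was at least 1.5-fold higher or lower, a log2 ratio of 0.585.

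Acetate and butyrate are products of bacterial fermentation of fibre in the large intestine and reach the liver through the portal vein. Butyrate has the longer carbon chain. Acetate is activated to acetyl-CoA, the building block of fatty acids and cholesterol, and much of it passes on to other tissues. Butyrate is activated to butyryl-CoA and oxidised in the mitochondria of colon cells and hepatocytes, and it also inhibits histone deacetylases, the enzymes that remove acetyl groups from histones. The liver makes bile acids from cholesterol, and transcription factors such as SREBP-2, PPARalpha, CAR, PXR and NRF2 set the levels of the enzymes concerned.

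Butyrate gave at least 1.5-fold higher levels than acetate for 99 genes and lower levels for 80, which were 1.05% and 0.850% of the 9410 genes. Differences of at least 2-fold were seen for 18 genes upward (0.191%) and 25 downward (0.266%), 0.457% in all. The higher genes were led by Ngp, a neutrophil granule protein, the intestinal genes Muc2 and Lypd8, and macrophage genes such as Marco. The lower genes were led by skeletal muscle genes such as Myl1, and also held enzyme genes such as Cyp2b9, Gstm3, Acot2 and Pdk4. The median ratio of all 9410 genes was 0.01, and 86.5% of them lay within 1.2-fold. The ratios of 1157 olfactory and vomeronasal receptor genes, which the liver is not known to use, had a standard deviation across genes of 0.16, and 1 of them was higher and 2 lower by 1.5-fold. Calls were more frequent among genes of low level: 39 higher and 39 lower among the 2353 genes of lowest mean level, against 12 and 4 among the 2353 of highest level.

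**Figure D1:**
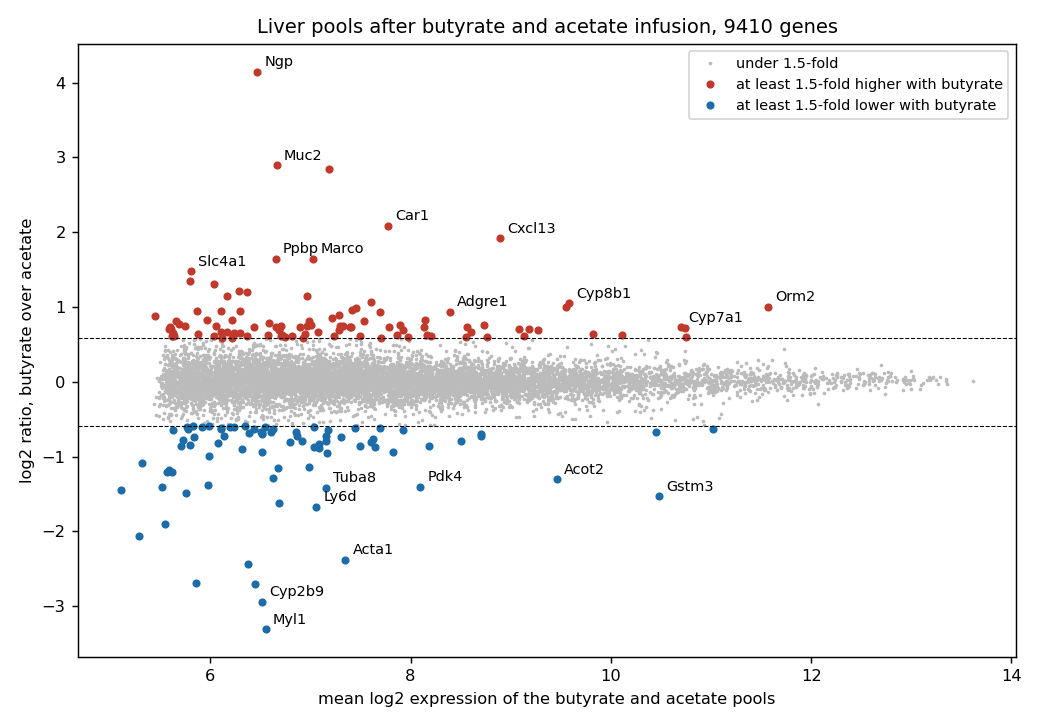
Log2 ratio of butyrate over acetate (vertical axis) against the mean log2 expression of both pools (horizontal axis) for the 9410 genes compared, 1 point per gene. Dashed lines mark 1.5-fold; 99 genes lie on or above the upper line and 80 on or below the lower one.

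Of the 6 pairs of arrays, acetate and butyrate were the least alike, with a Pearson r across genes of 0.990 and 179 genes past 1.5-fold, 1.90% of those tested. The other pairs had 52 to 107 such genes and an r of 0.992 to 0.996. Genes are not independent replicates, and each of these figures rests on 1 array per infusion. Of the 99 higher genes, the control level was nearer to acetate for 67 and nearer to butyrate for 32. Of the 80 lower genes, the control was nearer to acetate for 26 and nearer to butyrate for 54. Among the genes whose control was nearer to acetate, the butyrate pool lay outside the other 3 for 60 of the 67 higher and 25 of the 26 lower genes. Among those whose control was nearer to butyrate, the acetate pool lay outside the other 3 for 30 of the 32 higher and 47 of the 54 lower genes. By the way these genes were chosen and split, the pool named already lay beyond the control and the pool it was compared with. Only the propionate level could alter these last counts, so they do not show which pool stood apart.

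Hepatocyte markers differed by under 1.2-fold between both pools, Cyp3a11 apart. The albumin gene Alb read 13.32 in the control, 13.33 with acetate, 13.38 with propionate and 13.36 with butyrate, and 16 hepatocyte markers had a median ratio of 0.03. Skeletal muscle transcripts set the butyrate pool apart from the other 3. The log2 of the summed linear level of 48 muscle genes was 11.94 in the control, 11.92 with acetate, 12.10 with propionate and 10.71 with butyrate. Intestinal genes ran the other way, with summed log2 levels of 11.98, 11.91, 11.95 and 12.45 in the same order. Pancreatic acinar genes were lowest with acetate, at 14.02, 13.29, 13.45 and 13.66. Adipocyte genes read 12.61, 12.64, 12.53 and 12.39. Over all 18820 genes, whatever their level, 48.7% had a ratio above 0 and 51.2% one below, the background for lists that hold members below the floor. Which tissue such transcripts came from was not tested, and the genes concerned are described apart from the liver genes below.

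Genes of cholesterol synthesis were lower with butyrate than with acetate in 14 of 17 measured members, all at or above the floor, with a median ratio of -0.18. None of the 17 passed 1.5-fold in either direction, beside 47.6% of all 9410 genes with a ratio below 0 and 0.850% lower by 1.5-fold. Butyrate was the lowest of the 4 pools for 12 of the 17, beside 24.3% of all genes. The promoters of 3 of them are shown because the list moved together by small amounts. They are the 250 bases before the start of transcription from RefSeq (assembly GRCm38.p6), 5′ to 3′ on the strand of the gene. Capitals mark CCAAT, or its reverse complement ATTGG, the box read by the factor NF-Y, which is known to act beside SREBP-2 at sterol genes. Cyp51 lies at chr5:4104698-4104947 on the minus strand, Idi1 at chr13:8885356-8885605 on the plus strand and Pmvk at chr3:89454291-89454540 on the plus strand, the first of its 2 starts.
Cyp51: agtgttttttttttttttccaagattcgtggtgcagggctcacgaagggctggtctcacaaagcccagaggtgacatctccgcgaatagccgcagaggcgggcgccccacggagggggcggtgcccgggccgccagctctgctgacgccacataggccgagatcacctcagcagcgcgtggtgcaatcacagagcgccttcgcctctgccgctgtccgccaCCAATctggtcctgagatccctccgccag
Idi1: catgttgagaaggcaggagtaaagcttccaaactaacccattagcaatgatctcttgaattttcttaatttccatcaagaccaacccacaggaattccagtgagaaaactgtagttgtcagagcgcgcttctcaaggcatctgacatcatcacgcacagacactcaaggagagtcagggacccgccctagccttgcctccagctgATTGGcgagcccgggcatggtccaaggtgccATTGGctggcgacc
Pmvk: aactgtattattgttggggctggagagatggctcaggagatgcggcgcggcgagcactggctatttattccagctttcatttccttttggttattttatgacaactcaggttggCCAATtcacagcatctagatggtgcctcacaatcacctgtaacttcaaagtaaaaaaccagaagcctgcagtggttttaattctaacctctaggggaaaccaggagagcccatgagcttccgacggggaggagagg

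Searched on both strands, CCAAT was found in 14 of the 17 promoters that RefSeq lists for these genes (82.4%), and in at least 1 promoter of each of the 14 genes that matched. It was found in 11120 of all 32851 promoters of that length, 33.8%, and in 14 of 28 promoters of fatty acid synthesis genes, 50%. A match describes the letters and shows no binding.

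Cyp51, the lanosterol demethylase, had log2 levels of 8.26 in the control, 8.48 with acetate, 8.38 with propionate and 7.90 with butyrate, a ratio of -0.57. Fdps, farnesyl diphosphate synthase, read 10.24, 10.23, 10.08 and 9.69, a ratio of -0.54. Idi1, the isomerase of the isoprenoid units, read 9.53, 9.58, 9.51 and 9.18, a ratio of -0.41. For all 3 the butyrate pool lay below the others, which were close together. Pmvk, a mevalonate pathway kinase, had a ratio of -0.38, the squalene epoxidase Sqle one of -0.34 and the sterol dehydrogenase Nsdhl one of -0.29. The other end of the list was held by Msmo1, a sterol methyl oxidase, and Mvk, mevalonate kinase, with ratios of 0.09 and 0.07. The regulators did not move as a group with the enzymes: Srebf2, which encodes SREBP-2, had a ratio of 0.23, and Insig1, which holds it back in the endoplasmic reticulum, one of -0.23. Of 16 genes of sterol sensing and uptake, 11 had a ratio above 0 and the median was 0.06.

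**Figure D2:**
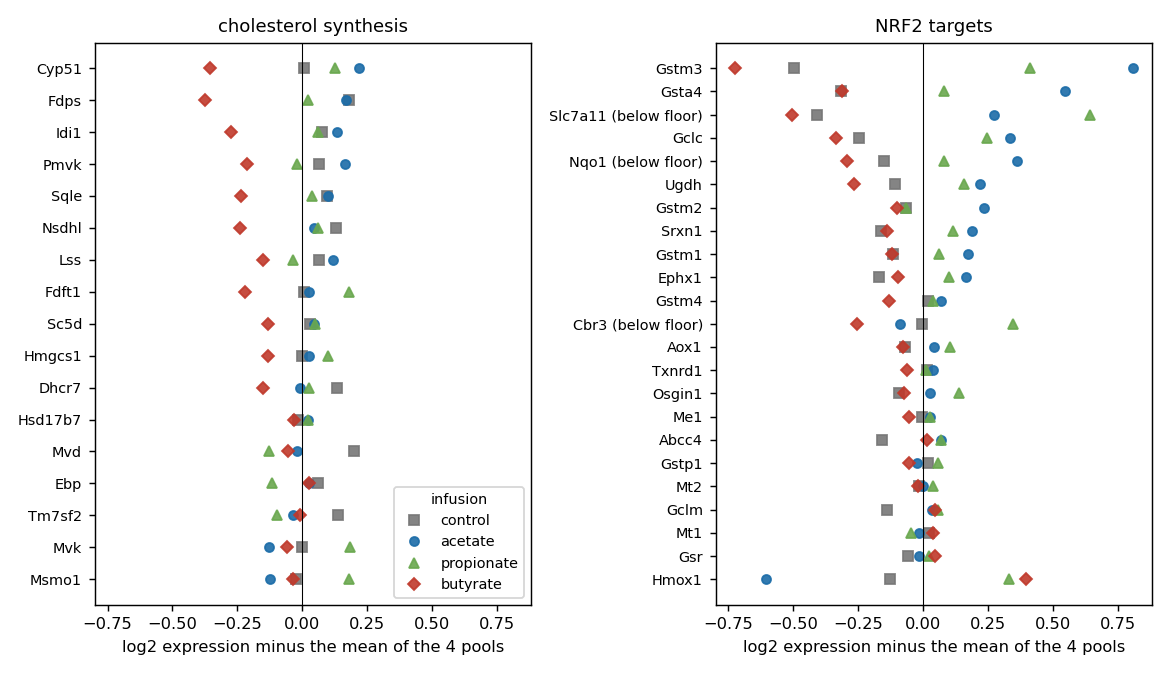
Log2 expression in each pool minus the mean of the 4 pools (horizontal axis) for the 17 measured genes of cholesterol synthesis (left) and the 23 measured NRF2 targets (right), ordered by the ratio of butyrate over acetate. Each mark is 1 pooled array. For 12 of the 17 cholesterol genes the butyrate pool is the lowest, and for 12 of the 23 NRF2 targets the acetate pool is the highest. Over all 9410 genes these shares are 24.3% and 26.3%.

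A pair of bile acid synthesis enzymes was higher with butyrate. Cyp8b1, the sterol hydroxylase that sets the share of cholic acid, read 9.69 in the control, 9.06 with acetate, 9.70 with propionate and 10.11 with butyrate, a 2.07-fold difference. Cyp7a1, the rate-limiting enzyme, read 10.98, 10.34, 10.80 and 11.07, a 1.66-fold difference. For both, acetate was the lowest pool and butyrate the highest. Nr0b2, the nuclear receptor that represses these genes, was 8.25, 8.34, 8.12 and 7.96, a ratio of -0.38. Cyp8b1 and Cyp7a1 were the only members past 1.5-fold among 26 bile acid genes, beside 0.914% of all 18820 genes higher by 1.5-fold. Of the 26 members, 12 had a ratio above 0 and 14 below, and the median was 0.00. The conjugating enzyme Baat had a ratio of 0.26 and the export pump Abcb11 one of -0.03.

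Fatty acid synthesis was lower with butyrate in 21 of 26 genes, with a median of -0.08 and no member past 1.5-fold. Elovl3, a fatty acid elongase, had a ratio of -0.50 and the lipogenic regulator Thrsp one of -0.46. Elovl6 and Acly, which makes cytosolic acetyl-CoA from citrate, had ratios of -0.37 and -0.32. Acss2, the cytosolic enzyme that activates acetate, read 10.24 in the control, 10.01 with acetate, 10.01 with propionate and 9.75 with butyrate. Fasn itself differed little, with a ratio of -0.14. The butyrate pool was the lowest of the 4 for 14 of the 26 genes.

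Genes listed for the handling of the infused acids did not pass 1.5-fold at or above the floor. Of 12 genes listed for short-chain acyl-CoA formation, 6 had a ratio above 0 and 6 below, and none passed 1.5-fold. That list also holds synthetases of longer acids, such as Acsl4, Acsl5 and Slc27a2, and Acsm3 was not measured. Acss2, which activates acetate, and its relatives Acss1 and Acss3 had ratios of -0.26, -0.37 and -0.11, with the mean of Acss1 below the floor. Acsm1, a medium-chain acyl-CoA synthetase, had a ratio of 0.01. The monocarboxylate transporter Slc16a1 read 8.67, 8.81, 8.71 and 8.65. The receptors Ffar2 and Ffar3 had means below the floor and ratios of -0.27 and -0.04. Among 13 transport and receptor genes 2 passed 1.5-fold, both higher with butyrate, beside 0.914% of all 18820 genes. These 2, Slc26a3 and Slc5a8, had means below the floor and are known as colon transporters. The intestinal sum given above was also highest in the butyrate pool, and a link between them was not tested.

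Acyl-CoA thioesterases, which release fatty acids from CoA, were lower with butyrate in 9 of 11 genes, with a median of -0.16. Acot2, a mitochondrial thioesterase, read 8.71 in the control, 10.11 with acetate, 9.73 with propionate and 8.81 with butyrate, a 2.46-fold difference. Acot1, its cytosolic neighbour on the chromosome, read 6.91, 7.47, 6.97 and 6.60, a ratio of -0.87. These were the only 2 of the 11 past 1.5-fold, beside 0.956% of all 18820 genes lower by 1.5-fold. The acetate pool was the highest for both genes; the butyrate level was close to the control for Acot2 and below the other 3 pools for Acot1. Short probes can cross-hybridise between such paralogs, so their values are uncertain as to the member.

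Several PPARalpha targets were lower with butyrate, while genes of fatty acid oxidation as a whole were level. Of 26 measured targets 18 had a ratio below 0 and 6 were lower by 1.5-fold, beside 0.956% of all 18820 genes; the median was -0.14. Pdk4, the kinase that shuts off pyruvate dehydrogenase in fasting, read 8.12 in the control, 8.80 with acetate, 8.12 with propionate and 7.40 with butyrate, a 2.64-fold difference with acetate above and butyrate below the other pools. Cidec, a lipid droplet protein of fat and fatty liver, read 6.88, 7.64, 6.90 and 6.69. Of the other members past 1.5-fold, Acot2 and Acot1 are described above, and Fabp3 and Ucp3, both known from muscle, had means below the floor. Cidec stood on the adipocyte list and Fabp3 on the muscle list too, and both lists were lower with butyrate. The part of those tissues in these ratios was not tested. Ehhadh, the peroxisomal bifunctional enzyme, had a ratio of -0.48, and the carnitine transferase Cpt1a one of 0.19. Of 23 genes of fatty acid oxidation 12 had a ratio above 0 and 11 below, with a median of 0.00.

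All 7 measured ketone body genes had a ratio below 0, with a median of -0.15 and a lowest value of -0.22, that of Bdh1. Of 30 genes of oxidative phosphorylation 15 were above and 15 below 0. Of 18 gluconeogenic genes 8 were above and 10 below, with a median of -0.03; Ppargc1a, a coactivator of the fasting response, had a ratio of -0.29 and G6pc one of 0.12. Bcat2 and Bckdk, of branched-chain amino acid breakdown, had ratios of 0.39 and 0.37 in a list whose median was 0.01. Among 33 genes of glycolysis and glycogen, 25 were below 0 and the 3 past 1.5-fold were lower, beside 0.956% of all 18820 genes. They were Pygm (-1.21) and Eno3 (-0.83), which are muscle isoforms and on the muscle list, and Pygb (-0.73), the brain-type glycogen phosphorylase. The 10 urea cycle genes had a median of 0.02.

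Cytochrome P450 genes of the CAR and PXR receptors held some of the widest differences. Cyp2b9, a steroid hydroxylase of the Cyp2b cluster, read 5.45 in the control, 7.99 with acetate, 8.28 with propionate and 5.05 with butyrate, a 7.69-fold difference; its control and butyrate values were below the floor. Cyp2b10, the classical CAR target, had a mean below the floor and read 4.21, 5.81, 4.39 and 4.12, a ratio of -1.69. Thus acetate and propionate shared the high level of Cyp2b9, while Cyp2b10 was high with acetate alone. Cyp3a11, the main PXR target, read 10.98, 11.33, 11.19 and 10.71, a 1.55-fold difference, and its neighbour Cyp3a44 had a ratio of -0.64. Of 21 members 4 were lower by 1.5-fold and none higher, beside 0.956% and 0.914% of all 18820 genes. Of the same 21, 10 had a ratio above 0, 10 below and 1 of 0.00, and the median was 0.00. Cyp2b and Cyp3a genes are close paralogs and can share probes' signal.

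NRF2 targets, which conjugate and clear reactive compounds, were lower with butyrate in 19 of 23 genes, with a median of -0.17. Gstm3, a glutathione transferase, read 9.95 in the control, 11.25 with acetate, 10.86 with propionate and 9.72 with butyrate, a 2.89-fold difference. Its 2 probe sets gave ratios of -1.87 and -1.19. Gsta4 read 7.76, 8.62, 8.15 and 7.76, a ratio of -0.86, and Gclc, the catalytic subunit of glutathione synthesis, read 10.21, 10.79, 10.70 and 10.12, a ratio of -0.67. For these 3 genes acetate was the highest pool, propionate came next, and control and butyrate were the lowest. Nqo1 and Slc7a11, also past 1.5-fold, had means below the floor. Hmox1, heme oxygenase, went the other way at 9.53, 9.05, 9.98 and 10.05, a 2.00-fold higher level with butyrate. It is also abundant in macrophages, whose markers were higher in the same pool, and a link between them was not tested.

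**Figure D3:**
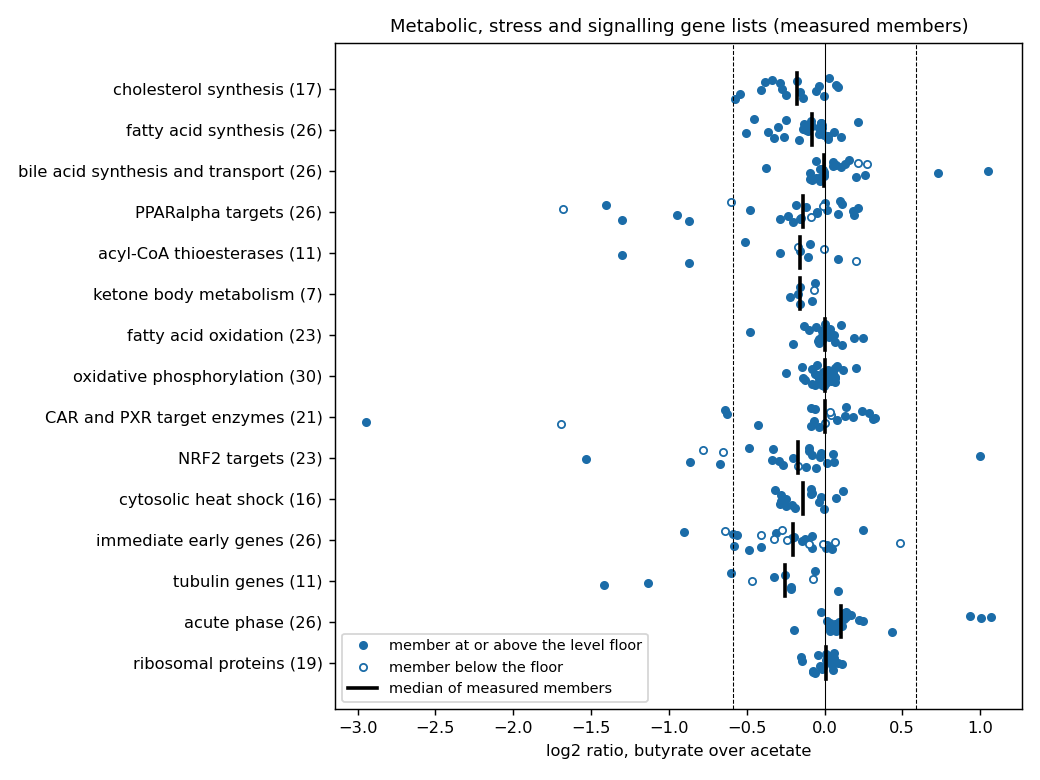
Log2 ratio of butyrate over acetate (horizontal axis) for each measured member of 15 gene lists, with the number measured in parentheses. Filled points are members at or above the level floor, open points those below it, black bars the list medians and dashed lines 1.5-fold. Medians run from -0.26 for tubulin genes to 0.10 for acute phase genes.

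Tubulin genes and early response genes were lower with butyrate. Of 11 tubulin genes, 10 had a ratio below 0, with a median of -0.26. Tuba8 read 6.73 in the control, 7.87 with acetate, 7.79 with propionate and 6.45 with butyrate, and Tubb2a read 6.53, 7.56, 7.21 and 6.42. In both, acetate and propionate were high and control and butyrate low. Among 26 immediate early genes 20 were below 0, with a median of -0.20. Nr4a1, an orphan nuclear receptor induced within minutes of many signals, read 5.74, 6.77, 5.82 and 5.87, so that acetate alone was high; Nr4a2, with a mean below the floor, and Maff had ratios of -0.64 and -0.59. Fos, also below the floor, had the highest ratio of that list, 0.49. Cytosolic heat shock genes were below 0 in 14 of 16, led by Hsph1 at -0.32. Acetate was the highest pool for 14 of the 16, beside 26.3% of all 9410 genes.

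Derl3, a protein of endoplasmic reticulum associated degradation, read 6.30 in the control, 7.50 with acetate, 6.35 with propionate and 5.87 with butyrate, a 3.09-fold difference. The rest of the unfolded protein response did not follow it: 19 of 30 members had a ratio above 0, the median was 0.05 and no other member passed 1.5-fold. Dhrs9, a retinol dehydrogenase, read 5.47, 6.51, 6.05 and 5.02, with its control and butyrate values below the floor.

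Genes tied to histone deacetylation were not higher with butyrate as a group. Of 16 deacetylase genes 8 had a ratio above 0 and 8 below, with a median of 0.01. Of 12 measured genes known to rise when these enzymes are inhibited 9 were below 0, and 8 of the 12 were at or above the floor. H1f0 and Tubb3, also on that list, were not measured, so their response is unknown. Of the 12 measured, the 2 past 1.5-fold were lower, beside 0.956% of all 18820 genes. Cdkn1a, a cell cycle inhibitor, read 8.49 in the control, 9.06 with acetate, 8.85 with propionate and 8.36 with butyrate. The actin-severing protein Gsn had a ratio of -0.61. The linker histone gene H1f2 had the highest ratio of that list, 0.27. Among 29 cell cycle genes 21 were below 0. At or above the floor were 13 of the 29, and 11 of these were below 0. Ccnb2, which drives entry into mitosis, was at -0.79, Ccnd1, a cyclin of the first growth phase, at -0.72 and Cdk1 at -0.59.

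The immune gene lists had medians above 0, Kupffer cell and neutrophil markers among them. All 18 Kupffer cell markers, all at or above the floor, had a ratio above 0, with a median of 0.50 beside 0.01 for all genes; 7 were higher by 1.5-fold, beside 1.05% of all 9410 genes. Kupffer cells are the resident macrophages of the liver. Marco, a scavenger receptor, read 6.45 in the control, 6.20 with acetate, 7.42 with propionate and 7.85 with butyrate, a 3.13-fold difference. Adgre1, which encodes F4/80, read 8.10, 7.92, 8.82 and 8.86. Spic, the transcription factor of iron-recycling macrophages, read 6.27, 5.69, 7.54 and 6.90. For these 3 genes control and acetate were low and propionate and butyrate high. Timd4, a receptor for dying cells, was high with butyrate alone, at 7.19, 6.93, 7.29 and 7.90. Clec4f, the lectin particular to Kupffer cells, differed less: 9.61, 9.36, 9.51 and 9.71. Fewer cells of a type and less RNA per cell cannot be told apart in these whole-tissue pools.

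Neutrophil and monocyte markers were above 0 in all 18 measured, with a median of 0.66 and 10 higher by 1.5-fold, beside 0.914% of all 18820 genes; 6 of the 18 were at or above the floor. Ngp, of neutrophil granules, read 5.79 in the control, 4.40 with acetate, 5.54 with propionate and 8.54 with butyrate, a 17.7-fold difference that was the highest of all; its acetate and propionate values were below the floor. S100a9, a subunit of calprotectin, read 5.83, 5.38, 6.16 and 6.69. Mpo, myeloperoxidase, had a mean below the floor and read 5.53, 4.12, 4.86 and 6.02. Acetate was the lowest pool for 15 of the 18 markers and butyrate the highest for 15. Ppbp, a platelet chemokine, followed the same order at 6.86, 5.83, 6.92 and 7.48, a ratio of 1.64.

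Chemokine genes had a ratio above 0 in 26 of 34, with a median of 0.20. Of the 34, 13 were at or above the floor, and 11 of these had a ratio above 0. By 1.5-fold 6 were higher and 1, with a mean below the floor, was lower at -0.60. Over all 18820 genes these shares were 0.914% and 0.956%. Cxcl13, which attracts B cells and is made by stromal cells and macrophages, read 7.93 in the control, 7.93 with acetate, 8.43 with propionate and 9.85 with butyrate, a 3.79-fold difference. Cxcl9 and Cxcl10, chemokines induced by interferon, had ratios of 0.76 and 0.57, and Ccl5 one of 0.69. Among 32 interferon-induced genes 29 were above 0, with a median of 0.18, and butyrate was the highest pool for 26 of them, beside 30.3% of all 9410 genes. The peptide transporter Tap1, on no list, read 7.16, 6.93, 7.06 and 7.67. Of 19 myeloid lectin and Siglec receptors 15 were above 0, with a median of 0.35; Clec4a1 had a ratio of 1.14 and its neighbour Clec4a3, a close paralog, one of 0.95, while Clec7a, a receptor for fungal glucan, had one of -0.64. Toll-like receptor genes were above 0 in 19 of 23, with Cd14, the co-receptor for endotoxin, at 0.83. Lymphocyte markers had a median of 0.08, but only 2 of the 18 were at or above the floor, and their median was 0.45. Nkg7, of cytotoxic granules, was 1 of these 2 and the only 1 of the 18 past 1.5-fold, beside 0.914% of all 18820 genes.

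Acute phase genes, which hepatocytes induce in inflammation, had a ratio above 0 in 24 of 26, with a median of 0.10. Orm2, an orosomucoid, read 12.02 in the control, 11.07 with acetate, 12.17 with propionate and 12.07 with butyrate, a 2.01-fold difference. Its neighbour and close paralog Orm3 read 7.90, 7.07, 7.67 and 8.14, and Saa3, an amyloid of macrophages and hepatocytes, read 7.65, 7.23, 7.77 and 8.16. The acetate pool was the lowest for 21 of the 26 genes, beside 23.8% of all 9410 genes. Most of the list was near the top of the scale and differed little, such as the fibrinogen chain Fgb at 0.04. Complement and coagulation genes were above 0 in 28 of 33, with a median of 0.05 and none past 1.5-fold.

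**Figure D4:**
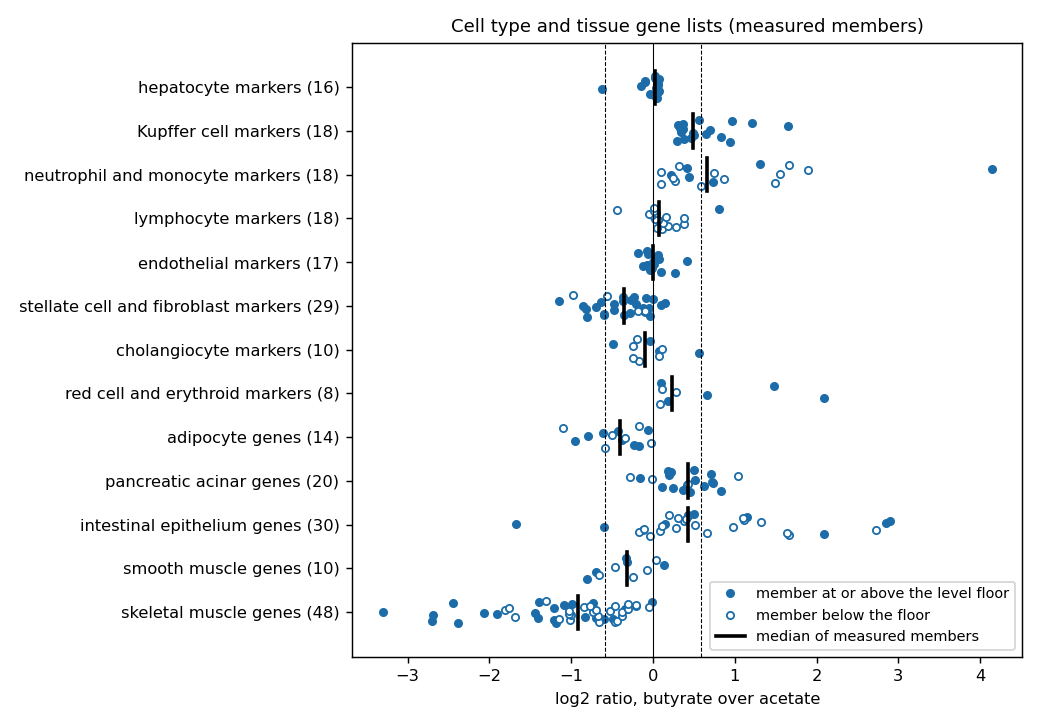
Log2 ratio of butyrate over acetate (horizontal axis) for each measured member of 13 cell type and tissue lists, with the number measured in parentheses. Filled points are members at or above the level floor, open points those below it, black bars the list medians and dashed lines 1.5-fold. Medians run from -0.91 for skeletal muscle genes to 0.66 for neutrophil and monocyte markers.

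Fibroblast and stellate cell genes were lower with butyrate in 27 of 29, with a median of -0.36 and 9 lower by 1.5-fold, beside 0.956% of all 18820 genes. Mmp2, a matrix metalloproteinase, read 6.21 in the control, 7.25 with acetate, 6.84 with propionate and 6.10 with butyrate, a 2.21-fold difference. Dpt, a matrix protein of fibroblasts, read 6.86, 7.92, 7.60 and 7.06, and the collagen genes Col1a1 and Col3a1 had ratios of -0.60 and -0.59. The acetate pool was the highest for 22 of the 29, beside 26.3% of all 9410 genes. Lrat, which stores vitamin A in quiescent stellate cells, had a ratio of 0.15 and stood at the top of the list. Endothelial markers were level, with 8 above and 9 below 0, and Lyve1, of the sinusoids, at 0.41.

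Skeletal muscle genes were lower with butyrate in all 48 measured, with a median of -0.91. By 1.5-fold 34 of the 48 were lower, beside 0.956% of all 18820 genes, and 22 were at or above the floor. The promoters of 3 of the genes with the widest differences are shown, with the E-box CAGCTG, read by the MyoD family of muscle factors, in capitals. They are again the 250 bases before the start, 5′ to 3′ on the strand of the gene, from RefSeq (GRCm38.p6). Myl1 lies at chr1:66945057-66945306, Atp2a1 at chr7:126463074-126463323 and Acta1 at chr8:123894776-123895025, all on the minus strand.
Myl1: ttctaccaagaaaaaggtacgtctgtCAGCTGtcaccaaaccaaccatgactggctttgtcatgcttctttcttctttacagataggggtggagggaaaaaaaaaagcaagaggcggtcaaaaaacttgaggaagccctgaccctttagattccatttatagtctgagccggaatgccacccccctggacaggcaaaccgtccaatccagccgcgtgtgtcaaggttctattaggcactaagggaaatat
Atp2a1: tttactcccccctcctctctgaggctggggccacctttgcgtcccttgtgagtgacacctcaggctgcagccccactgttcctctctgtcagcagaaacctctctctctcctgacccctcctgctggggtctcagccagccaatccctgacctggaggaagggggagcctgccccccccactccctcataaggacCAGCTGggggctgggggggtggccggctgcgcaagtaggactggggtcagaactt
Acta1: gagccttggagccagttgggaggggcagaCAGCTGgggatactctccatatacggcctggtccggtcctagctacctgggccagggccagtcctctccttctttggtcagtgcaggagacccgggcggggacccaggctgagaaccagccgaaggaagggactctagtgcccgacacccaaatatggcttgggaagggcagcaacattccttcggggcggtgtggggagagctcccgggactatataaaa

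The motif, which is its own reverse complement, was found in 21 of 45 promoters of the muscle list (46.7%), 3 of 17 of the cholesterol list (17.6%) and 4271 of all 32851 (13%). These counts describe letters only.

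Myl1, a fast myosin light chain, read 8.05 in the control, 8.21 with acetate, 8.20 with propionate and 4.90 with butyrate, a 9.88-fold difference. Atp2a1, the calcium pump of fast fibres, read 7.87, 7.80, 8.07 and 5.09. Mb, myoglobin, read 7.50, 7.20, 7.54 and 4.52, and skeletal actin Acta1 read 8.64, 8.54, 8.85 and 6.16. The control, acetate and propionate pools held these transcripts at like levels, and the butyrate value of the first 3 was below the floor. The butyrate pool was the lowest of the 4 for 46 of the 48 genes. Tnnt3, of the troponin complex, had a ratio of -2.44, and the myosin heavy chains Myh2, Myh1 and Myh4, close paralogs in 1 run on the chromosome, had ratios of -2.07, -1.90 and -1.45.

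Intestinal epithelium genes were higher with butyrate in 24 of 30, with a median of 0.43. By 1.5-fold 12 were higher and 2 lower, beside 0.914% and 0.956% of all 18820 genes; 11 of the 30 were at or above the floor. Muc2, the gel mucin of goblet cells, read 5.13 in the control, 5.22 with acetate, 4.92 with propionate and 8.11 with butyrate, a 7.44-fold difference. Lypd8, which keeps bacteria off the colon surface, read 5.64, 5.77, 5.48 and 8.61. Car1, a carbonic anhydrase of colon and red cells, read 6.93, 6.73, 6.52 and 8.82. Only the butyrate pool was high for each, and the other values of Muc2 were below the floor. The goblet cell gene Clca1, with a mean below the floor, had a ratio of 2.73. The intestinal transcription factors Cdx1 and Cdx2, also below the floor, had ratios of -0.17 and 0.09. Ly6d, a surface protein that epithelia and B cell precursors carry, went the other way at 5.93, 7.90, 7.03 and 6.22, a ratio of -1.67. Gucy2c, an intestinal receptor, was the other member lower by 1.5-fold, at 4.94, 6.07, 6.13 and 5.46, a ratio of -0.60. Its levels were highest with acetate and propionate, and its control and butyrate values were below the floor. Slc4a1, the anion exchanger of red cells, was higher with butyrate at 5.21, 5.07, 5.71 and 6.54, while Alas2, of heme synthesis in red cell precursors, had a ratio of 0.19.

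Pancreatic acinar genes were above 0 in 17 of 20, with a median of 0.42, and the acetate pool was the lowest for 17. Cela1, an elastase, read 8.83 in the control, 7.72 with acetate, 8.07 with propionate and 8.56 with butyrate. Adipocyte genes were below 0 in all 14, with a median of -0.41; Lpl, lipoprotein lipase, read 7.12, 7.56, 7.18 and 6.76, and the fat hormone gene Adipoq had a mean below the floor and a ratio of -0.59. At or above the floor were 16 of the 20 pancreatic and 8 of the 14 adipocyte genes. The part of these tissues in the ratios of liver genes was not tested. Without the genes of the skeletal muscle, smooth muscle, intestinal, pancreatic, adipocyte, red cell and mesothelial lists, 88 genes were higher and 55 lower.

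**Figure D5:**
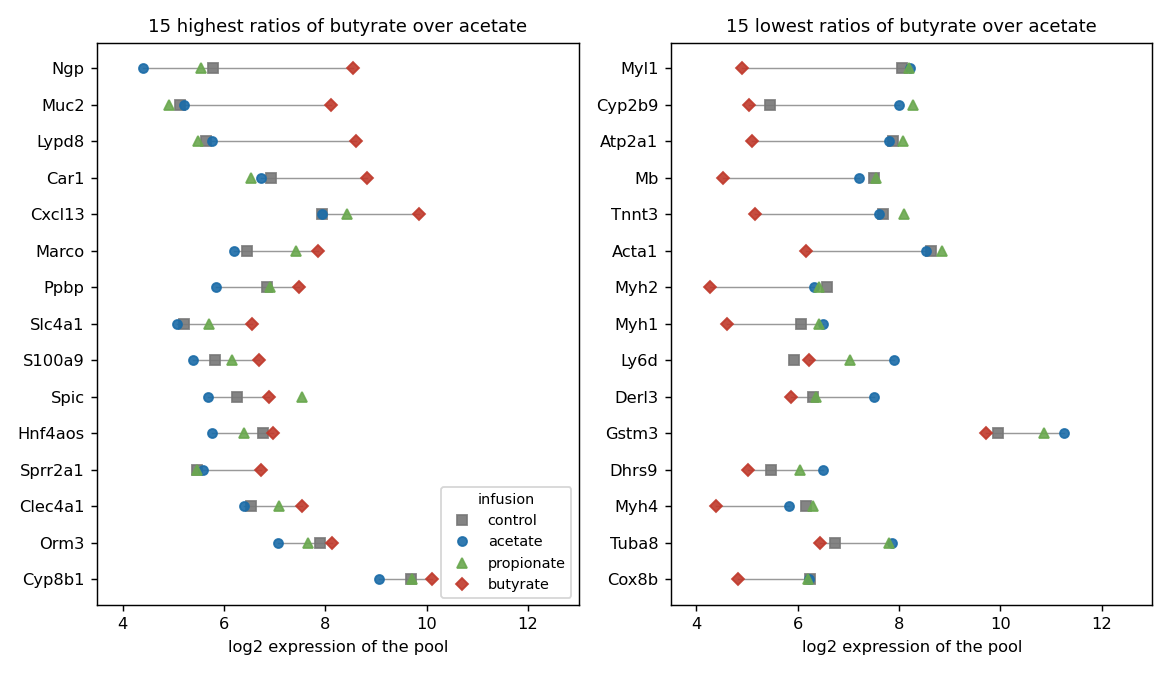
Log2 expression in each of the 4 pools (horizontal axis) for the 15 genes with the highest (left) and the 15 with the lowest (right) ratio of butyrate over acetate; grey lines join the acetate and butyrate values. On the left the butyrate pool is the highest for Ngp, Muc2, Lypd8 and Car1, and on the right it stands far below the other 3 for Myl1, Atp2a1, Mb and Acta1.

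The remaining genes among the 30 at either end fell in the same groups or outside the lists. Sprr2a1, a small proline-rich protein of epithelia with close paralogs, read 5.46, 5.59, 5.46 and 6.73. Hnf4aos, a transcript antisense to Hnf4a, read 6.76, 5.77, 6.39 and 6.96, lowest with acetate, while Hnf4a itself had a ratio of -0.15; signal of a gene and its antisense partner could not be separated further here. Cox8b, a muscle form of a cytochrome oxidase subunit, read 6.24, 6.22, 6.20 and 4.82. Of the 179 genes past 1.5-fold, 23 lay in 11 runs of neighbours on a chromosome that moved the same way, among them the Orm, Clec4a, Acot, Cyp3a and Myh runs named above.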

How the data were processed

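Liver RNA pools were hybridised to 4 whole-transcript arrays, 1 per infusion. Per the labels, RNA with an integrity number above 8.0 was pooled at 500 ng per mouse and 100 ng entered cDNA synthesis. The deposited values are log2 expression per probe set. The submitters' processing notes name RMA, a method of background correction, quantile normalization and probe summary. Neither its version nor its settings were given in the sources used here. Such scaling gives all arrays like distributions, and the medians of the 4 columns lay between 5.11 and 5.12. A shift of all genes in 1 pool could therefore not be seen. Of 35556 probe sets, 21218 had 1 gene symbol in the platform annotation, 1881 had several and 12457 none; the latter 2 kinds entered no gene comparison. Probe sets of a symbol were averaged, giving 18820 genes, of which 1386 combined several probe sets. The log2 ratio was the butyrate value minus the acetate value, so a difference of 1.5-fold counts as called and no test was made. Precision is limited by the number of arrays.

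The text names the 15 highest and 15 lowest ratios at or above the floor, leaving out predicted genes, olfactory and vomeronasal receptors, small RNAs and names that are accessions, and members of 57 gene lists, those past 1.5-fold and those with the widest ratios first. Tap1, Dhrs9 and Hnf4aos stand on no list, and Tap1 was chosen after its values were seen. The lists held 1146 genes, 1021 of them measured, a few matched by an older name. Members and lists were chosen with earlier results of these data known, so no list is independent evidence of a direction. Lists are described by counts and medians. Replicate animals cannot be separated within a pool. Python 3.11.15, pandas 2.3.3, numpy 2.4.6, R 4.3.3 and limma 3.58.1 (cyclic loess, an alternative) were used. The counting was tested on simulated data with little noise and known changes well past the fold. That checks the counting only and says nothing of how reliable the called genes are. Alternatives were another fold, other level filters, other scalings, another summary of probe sets or lists, and removal of genes of other cell types.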

Additional observations from a re-analysis of the deposited data

Results flagged for a closer look

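Probe sets without exactly 1 gene symbol entered no comparison of genes. Among the 835 of these with several symbols at or above the level floor, 6 were at least 1.5-fold higher with butyrate than in both the acetate and the control pool, and 7 were as much higher with acetate than in both the butyrate and the control pool. Among the 3980 with no symbol at or above the floor, the same counts were 37 for butyrate and 25 for acetate. They drew attention as differences above the control in data outside the comparison of genes, and rest on 1 array per pool.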

How the results depend on the processing

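No paired analysis was possible because each infusion had 1 pooled array. For the same reason no replicate could be left out. The 99 higher and 80 lower genes became 18 and 25 at a 2-fold difference, and 172 and 180 with no filter on low values. Without the genes of all non-hepatocyte and immune lists, an alternative chosen after seeing the data, 48 genes were lower and 68 higher. Counts stayed within 1.5 times under cyclic loess (93 and 86), median-centred arrays (99 and 80), the probe set with the highest mean (98 and 82), both values at or above the floor (83 and 56) and without genes of other tissues (88 and 55). Under cyclic loess 93 of the higher and 80 of the lower genes were shared. With the mean in place of the median, list values became -0.30 for PPARalpha targets, -0.23 for CAR and PXR target enzymes, -0.28 for female-biased genes, -0.43 for tubulin genes, 0.95 for neutrophil and monocyte markers, 0.62 for red cell markers and 0.71 for intestinal genes. Over members at or above the floor, medians became -0.24 for female-biased genes, 0.45 for lymphocyte markers, 0.66 for red cell markers and -1.21 for skeletal muscle genes. These moved by more than 0.16, the standard deviation of olfactory and vomeronasal receptor ratios. The other 274 recomputed list medians moved by less, as did 89 of 90 recomputed ratios of named genes; the ratio of Gstm3 was -1.19 with the probe set of the highest mean. No sign of a called value changed under these alternatives. The spread between animals is unknown, and low levels limit the ratios of genes below the floor.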

Other observations

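Genes on no list made up 61 of the 99 higher and 26 of the 80 lower genes, and are given here as values chosen after they were seen. Examples known from myeloid cells follow. Lcp2, a signalling adaptor of blood cells, read 7.15 in the control, 7.13 with acetate, 7.66 with propionate and 7.94 with butyrate. Cybb, the catalytic subunit of the phagocyte oxidase, read 8.82, 8.83, 9.30 and 9.44, and Slc11a1, a metal transporter of phagosomes, read 7.90, 7.90, 8.35 and 8.51. In all 3 the control and acetate pools lay together, and propionate and butyrate were higher.

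Some genes were lowest with acetate. Slc13a5, the citrate transporter of hepatocytes, read 6.75 in the control, 6.07 with acetate, 6.27 with propionate and 6.81 with butyrate, and Rgs16, a regulator of G protein signalling, read 9.02, 8.19, 9.02 and 8.92. Among the lower genes, Chka, choline kinase alpha, read 7.55, 8.08, 7.70 and 7.21, and Anxa2, a membrane-binding annexin, read 6.62, 7.52, 7.32 and 6.80. Trem2, a lipid receptor of macrophages, ran against the Kupffer cell markers at 5.76, 6.41, 6.15 and 5.79, a ratio of -0.62.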
